A study of Mus musculus with 9 samples.

Results

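The collagen genes of the mouse were followed here in BeCon cells, which are ovarian tumor cells of the mouse. Members were the protein-coding genes of the deposited gene table whose symbol is Col, a number, a and a number, and 44 of the 48230 genes met that rule. Strand-marking sequencing of poly(A) RNA gave 9 libraries. Of these, 4 libraries came from BeCon cells in the ascites of B6 mice given YKL-05-099, which inhibits the salt-inducible kinases, 1 from BeCon cells grown in culture, and 4 from BeCon cells in the ascites of B6 mice given the vehicle. The ascites cells had been sorted to keep viable, CD45-negative cells that carry MHC class I. The sources used here do not give the alleles of BeCon, the age of the mice, the dose of YKL-05-099 or the length of treatment. Whether mice were pooled in a library is not stated either, and p-values therefore rest on the spread among these libraries alone. Library names start differently in the mouse groups, and any cage or batch this stands for cannot be told apart from treatment.

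Collagens are extracellular proteins built from alpha chains that wind around each other, and each chain has its own gene. Fibrillar collagens (types I, III and V here) form the cables of connective tissue, type IV collagen forms the sheet-like network of basement membranes, and type VI collagen forms beaded filaments beside them. FACIT collagens sit on the surface of fibrils, and the remaining types include membrane-spanning and heparan-sulfate-bearing collagens. Type I collagen is usually a mixed molecule of Col1a1 and Col1a2 chains, the common type IV collagen a mixed molecule of Col4a1 and Col4a2 chains, and the common type VI collagen needs a Col6a1, a Col6a2 and a Col6a3 chain. In ovarian cancer, type I and type III collagen are best known as products of stromal fibroblasts, while epithelial and mesothelial cells lay down basement membrane collagen.

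Values are FPKM, the fragments of a gene per kilobase, scaled to library size, so levels of different genes can be set side by side. The FPKM summed to between 453169 and 482851 per library, and 11421 to 11893 genes per library reached an FPKM of 1. The lowest values of long genes put the depth at roughly 23000000 to 37000000 fragments per library. At those depths 1 fragment on a transcript of 5 kb is worth 0.0087 to 0.00541 FPKM. Vehicle replicate 4 stood apart from the other vehicle libraries. It was the highest or the lowest vehicle library for 16 of the 17 collagen genes tested and for 63.6% of all genes tested. The other vehicle libraries were so for 4 to 8 of the 17 and for 40.7% to 47.9% of all genes. Among YKL-05-099 libraries the largest share of all genes was 55.8%, for replicate 4. Vehicle replicate 4 was also the vehicle library nearest to the YKL-05-099 mean for 9 of 11 collagen genes called below and for 50.4% of all genes called. Each other vehicle library was nearest for at most 1 of the 11 and for 11.6% to 19.2% of all genes called.

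Basement membrane and beaded filament collagens made up most of the collagen transcripts in every library. In the YKL-05-099 libraries the 44 genes summed to 668.0 ± 19.0 FPKM, in the cultured library to 738.3 FPKM and in the vehicle libraries to 606.5 ± 15.9 FPKM (SD, n = 4 libraries for each mouse group). Type IV genes held 44.7% ± 1.29 of that sum in YKL-05-099 libraries, 76.0% in culture and 43.1% ± 3.80 in vehicle libraries. Type VI genes held 37.9% ± 2.04, 5.23% and 30.8% ± 3.10 in YKL-05-099, cultured and vehicle cells. Fibrillar genes held 11.97% ± 0.969, 15.2% and 20.3% ± 0.525 in the same order. The FACIT genes held between 3.26% and 5.09% in every library.

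**Figure D1:**
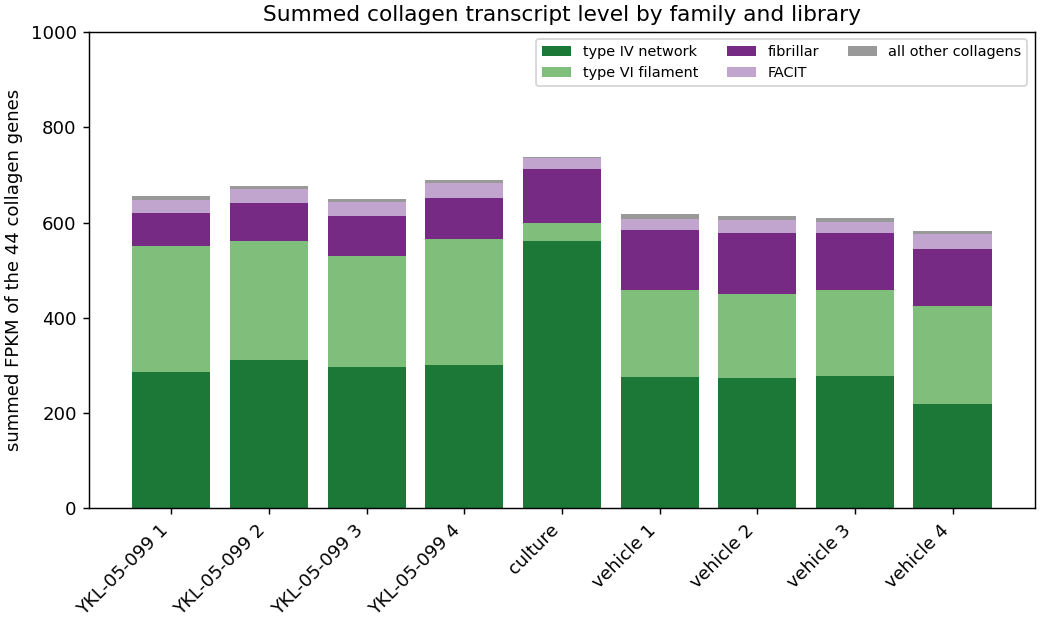
Summed FPKM of the 44 collagen genes in each of the 9 libraries, stacked by family. The fibrillar block is thinner in the 4 YKL-05-099 libraries (69.7 to 85.5 FPKM) than in the 4 vehicle libraries (119.4 to 127.3 FPKM), and the type VI block is thinnest in the cultured library (38.6 FPKM).

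Few of the 44 genes carried this sum. A mean FPKM of at least 1 in YKL-05-099, cultured or vehicle cells was reached by 17 genes, and the other 27 are given as a group further on. Col6a1 at 147 FPKM and Col4a1 at 145 FPKM led in the YKL-05-099 libraries, followed by Col6a2, Col4a2, Col3a1 and Col4a5. In culture the leading genes were the type IV genes Col4a1, Col4a2, Col4a5 and Col4a6, with Col1a1 next. In the vehicle libraries Col4a1 at 118.6 FPKM and Col6a1 at 110.2 FPKM led, followed by Col4a2, Col6a2, Col3a1 and Col4a5.

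**Figure D2:**
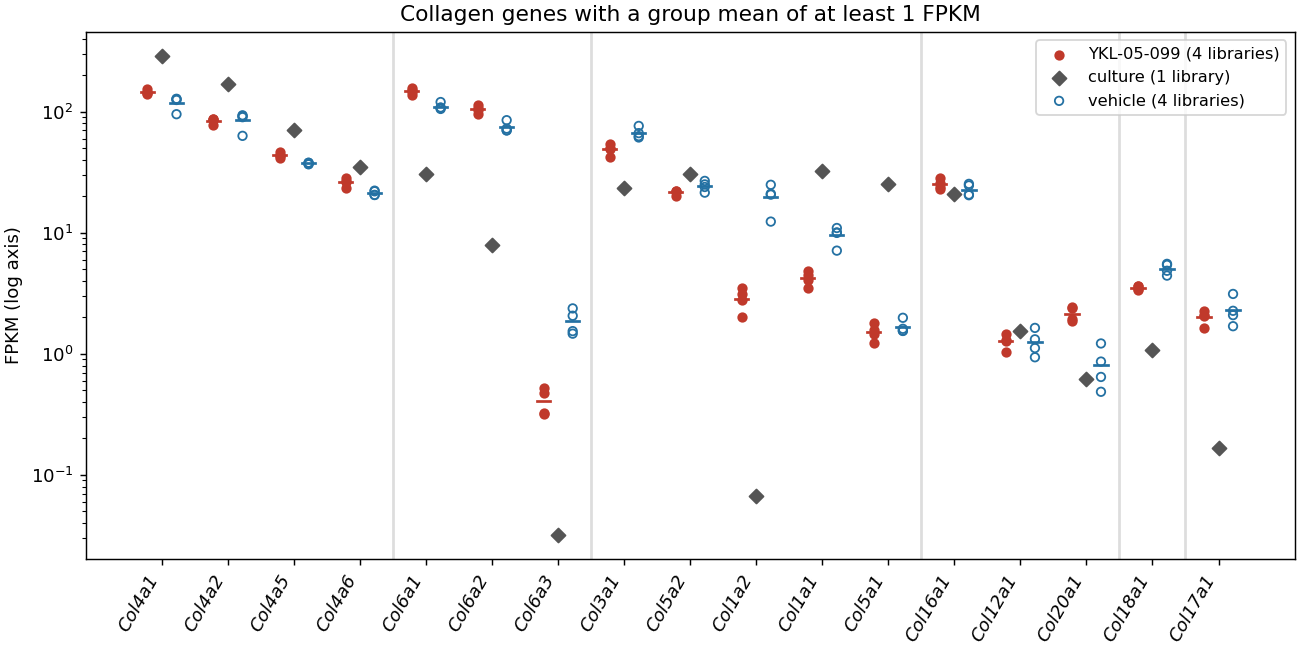
FPKM of the 17 collagen genes on a log axis, by family from left to right (type IV, type VI, fibrillar, FACIT, Col18a1, Col17a1). Red dots are YKL-05-099 libraries, grey diamonds the cultured library and blue circles vehicle libraries, with short lines at the means of the mouse groups. Col1a2 stands at 0.0668 FPKM in culture while Col1a1 stands at 32.2 FPKM there.

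The treatment comparison asked how the tumor cells of YKL-05-099 mice differed from those of vehicle mice. Collagen genes moved in both directions, also within the type VI family. With YKL-05-099 the genes of type VI chains 1 and 2 and 3 of the 4 expressed type IV genes rose, and Col1a1, Col1a2, Col3a1 and the third type VI chain gene Col6a3 fell. Limma called 11 of the 17 tested collagen genes at an adjusted p under 0.05, 6 higher and 5 lower. Over all 11788 genes tested 43.2% were called, 28.0% higher and 15.1% lower. YKL-05-099 and vehicle values were fully separate for 11 of the 17 collagen genes, against 40.0% of all genes tested. The median log2 fold change was 0.0073 over the 17 collagen genes and 0.054 over all genes tested. The split over all genes depends on scaling. With deposited values 3304 genes were called higher and 1785 lower, and with median-of-ratios scaling 2572 higher and 2338 lower, while every called collagen gene kept its direction. Since the libraries hold sorted bulk cells, fewer cells that make a transcript and less of it per cell cannot be told apart.

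**Figure D3:**
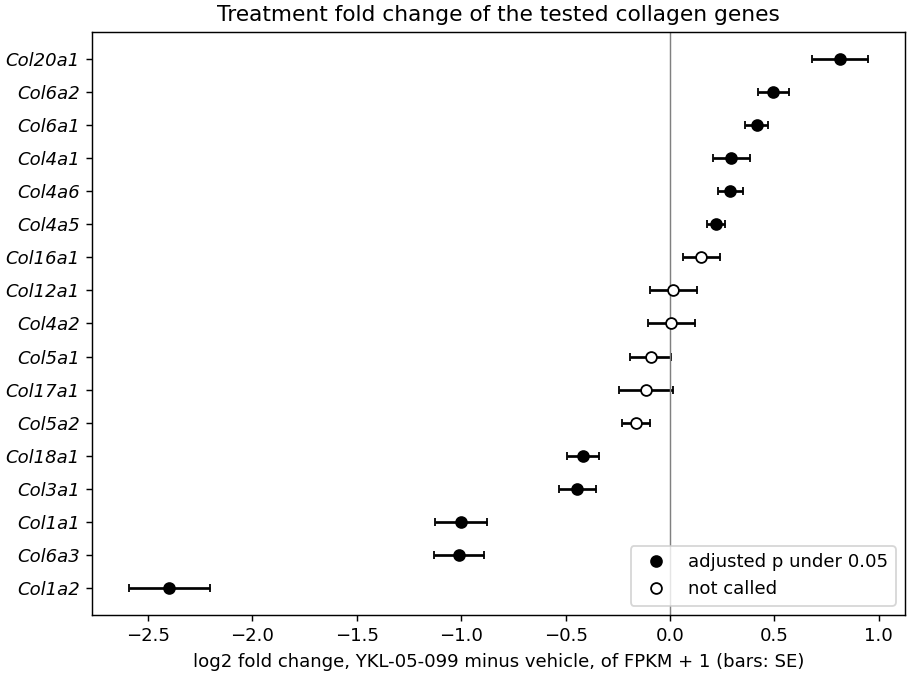
Log2 fold change of FPKM + 1 in YKL-05-099 minus vehicle libraries for the 17 tested collagen genes, with standard errors as bars. Filled points had an adjusted p under 0.05. Col20a1 is at the top with 0.81 and Col1a2 at the bottom with -2.40, outside the range of the other genes.

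Among the type IV genes, Col4a1 stood at 139, 153, 145 and 142 FPKM in the YKL-05-099 libraries, against 128, 125, 127 and 95.3 FPKM in the vehicle libraries. All YKL-05-099 libraries lay above all vehicle libraries, and vehicle replicate 4 was far below the rest of its group. Its log2 fold change was 0.29 ± 0.089 (SE; limma adjusted p = 0.0228). That call was lost without YKL-05-099 replicate 2 (adjusted p = 0.0613) and with no filter on low values (adjusted p = 0.0707). Without vehicle replicate 4 the log2 fold change was 0.19 with an adjusted p of 0.00569 in limma.

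Its partner Col4a2 was at 76.9, 87.1, 86.9 and 85.5 FPKM with YKL-05-099, against 90.0, 92.0, 93.2 and 63.1 FPKM with vehicle. The groups overlapped through vehicle replicate 4 only, and Col4a2 was not called (log2 fold change 0.0073 ± 0.11, limma adjusted p = 0.964). That value near 0 rests on vehicle replicate 4, without which the log2 fold change was -0.13 ± 0.051 (limma adjusted p = 0.0707). Both genes lie head to head on chromosome 8, Col4a1 at chr8:11198423-11312826 on the minus strand and Col4a2 at chr8:11312805-11449287 on the plus strand (GRCm38), and their annotated ends overlap by 22 bp. The ratio of Col4a1 to Col4a2 was 1.72 ± 0.0734 in YKL-05-099 libraries, 1.71 in culture and 1.41 ± 0.0710 in vehicle libraries. The mouse groups did not overlap in that ratio (exact two-sided permutation test, p = 0.0286, the smallest that 4 against 4 libraries allow). Adjusted over the 7 chain ratios compared, which were chosen after the values had been seen, the p was 0.0667 and missed the threshold.

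Col4a5 and Col4a6 encode further type IV chains, and mutations of COL4A5 cause Alport syndrome in humans. Col4a5 was at 42.6, 44.2, 41.7 and 46.0 FPKM with YKL-05-099, against 37.8, 37.0, 36.7 and 37.8 FPKM with vehicle. For Col4a6 the values were 26.5, 27.0, 23.6 and 28.3 FPKM with YKL-05-099, against 20.5, 20.5, 21.98 and 22.3 FPKM with vehicle. Neither gene overlapped between the groups. The log2 fold changes were 0.22 ± 0.042 for Col4a5 (limma adjusted p = 0.00257) and 0.29 ± 0.060 for Col4a6 (limma adjusted p = 0.00391). Their ratio was 1.66 ± 0.0739 with YKL-05-099 and 1.75 ± 0.0811 with vehicle, and those ranges overlapped (exact permutation p = 0.171). Col4a3 and Col4a4, the other head-to-head pair of the family, did not exceed 0.0376 FPKM in any library.

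The pair that rose together shares its upstream region: Col4a5 (chrX:141475385-141689234, plus strand) and Col4a6 (chrX:141165403-141474076, minus strand) start 1308 bp apart and run in opposite directions. Their upstream sequences are shown for that reason, from RefSeq on GRCm38.p6, for the bases before each start that lie outside annotated coding-transcript exons. The stretches are chrX:141475169-141475384, plus strand, for Col4a5 and chrX:141474077-141474326, minus strand, for Col4a6. Capitals mark matches on either strand to the motifs searched here, which were the GC box with the letters GGGCGG, the CCAAT box with those of its name, the TATA box with TATAAA, the TEAD site with GGAATG, and the element that CREB binds (CRE). For the CRE both the short form TGACG and the full form TGACGTCA, in which the short form lies, were searched.

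Col4a5: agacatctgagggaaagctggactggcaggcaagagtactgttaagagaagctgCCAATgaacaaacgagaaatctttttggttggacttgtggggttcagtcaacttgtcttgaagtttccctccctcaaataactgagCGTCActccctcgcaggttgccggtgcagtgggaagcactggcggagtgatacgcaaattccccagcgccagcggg
Col4a6: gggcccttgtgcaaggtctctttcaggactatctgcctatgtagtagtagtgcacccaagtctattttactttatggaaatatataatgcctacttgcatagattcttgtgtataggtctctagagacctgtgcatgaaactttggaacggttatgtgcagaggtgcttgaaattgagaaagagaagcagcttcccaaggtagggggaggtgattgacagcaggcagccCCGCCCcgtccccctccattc

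In those letters Col4a5 has a CCAAT box and a short CRE, and Col4a6 has a GC box and none of the other motifs. The whole window of Col4a5 also held 1 GC box, in the 34 exon bases that are not shown. RefSeq held 38 windows for 35 of the 44 collagen genes. Of these 38 windows of 250 bases, 10.5% held a short CRE and 57.9% a GC box, against 17.8% and 32.7% of all 32851 windows of the same length. A CCAAT box was in 34.2% of collagen windows and 33.8% of all windows, a TATA box in 13.2% and 12.4%, and a TEAD site in 10.5% and 12.6%. No collagen window held a full CRE, against 1.55% of all windows. A match describes the letters only.

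The 3 expressed type VI genes did not move together, as 2 rose and 1 fell. Col6a1 stood at 152, 146, 136 and 155 FPKM in the YKL-05-099 libraries, against 108, 105, 107 and 120.0 FPKM in the vehicle libraries. Col6a2 stood at 114, 104, 95.7 and 107 FPKM in YKL-05-099 libraries, against 72.4, 69.8, 70.2 and 85.0 FPKM in vehicle libraries. All YKL-05-099 libraries lay above all vehicle libraries for both genes, and vehicle replicate 4 was the highest of its group for both. The log2 fold changes were 0.41 ± 0.057 for Col6a1 (limma adjusted p = 0.000412) and 0.50 ± 0.073 for Col6a2 (limma adjusted p = 0.000616). Col6a1 (chr10:76708792-76726168) and Col6a2 (chr10:76595762-76623630) are neighbours on the minus strand, 85161 bp apart.

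Col6a3 (chr1:90765923-90843971, minus strand), the gene of the largest type VI chain, went the other way at a far lower level. It was at 0.317, 0.325, 0.476 and 0.526 FPKM with YKL-05-099, against 2.37, 1.54, 2.06 and 1.47 FPKM with vehicle. The highest YKL-05-099 library was below the lowest vehicle library, and the mean was 22.1% of the vehicle mean. Its log2 fold change on the FPKM + 1 scale, which understates changes at this level, was -1.01 ± 0.12 (limma adjusted p = 0.000198). The ratio of Col6a1 to Col6a3 was 478, 448, 286 and 296 with YKL-05-099, 954 in culture, and 45.6, 68.4, 52.0 and 81.8 with vehicle. The mouse groups did not overlap (exact permutation p = 0.0286, adjusted p = 0.0667 over the 7 ratios). Between Col6a1 and Col6a2 the ratio was 1.40 ± 0.0495 with YKL-05-099 and 1.49 ± 0.0505 with vehicle, with overlapping ranges (exact permutation p = 0.0857). Col6a4, Col6a5 and Col6a6, which encode further type VI chains, did not exceed 0.133 FPKM in any library.

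The upstream sequences of the 3 expressed type VI genes are shown because 2 of them rose while the third fell. They are again from RefSeq on GRCm38.p6, with the same capitals, at chr10:76726169-76726294, minus strand, for Col6a1, chr10:76623631-76623880, minus strand, for Col6a2 and chr1:90843972-90844221, minus strand, for Col6a3.

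Col6a1: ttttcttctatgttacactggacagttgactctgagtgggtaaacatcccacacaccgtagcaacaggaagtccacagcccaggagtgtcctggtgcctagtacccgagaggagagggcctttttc
Col6a2: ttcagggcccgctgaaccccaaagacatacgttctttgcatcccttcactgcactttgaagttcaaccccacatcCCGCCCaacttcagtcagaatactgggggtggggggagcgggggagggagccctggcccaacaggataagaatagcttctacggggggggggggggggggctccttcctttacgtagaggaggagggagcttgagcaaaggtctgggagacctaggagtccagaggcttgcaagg
Col6a3: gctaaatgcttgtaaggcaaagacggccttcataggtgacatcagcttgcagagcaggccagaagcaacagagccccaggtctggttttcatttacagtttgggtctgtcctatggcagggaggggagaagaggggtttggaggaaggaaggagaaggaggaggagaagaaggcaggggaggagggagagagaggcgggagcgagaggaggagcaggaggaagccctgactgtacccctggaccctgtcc

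Within these stretches the only match was a GC box before Col6a2. A second RefSeq window of Col6a2, most of it exon, held 3 GC boxes and 1 TEAD site in bases that are not shown. The Col6a3 stretch, and the shorter one before Col6a1, held no match to any of the 6 motifs.

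Fibrillar genes fell where they changed. Col1a2 (chr6:4504814-4541544, plus strand) was at 2.03, 2.78, 3.49 and 3.15 FPKM in YKL-05-099 libraries, against 24.9, 20.97, 20.6 and 12.4 FPKM in vehicle libraries. Every YKL-05-099 library lay far below every vehicle library, with vehicle replicate 4 the lowest of its group. The mean with YKL-05-099 was 14.5% of the vehicle mean, and the log2 fold change was -2.40 ± 0.19 (limma adjusted p = 2.38e-05). The fall ranged from -2.60 to -2.28 when each library was left out in turn.

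Col1a1 (chr11:94936224-94953042, plus strand), the other chain gene of type I collagen, had a smaller log2 fold change. It was at 3.51, 4.44, 4.84 and 4.11 FPKM with YKL-05-099, against 10.9, 10.1, 9.97 and 7.12 FPKM with vehicle. The groups did not overlap, the mean was 44.4% of the vehicle mean and the log2 fold change was -1.001 ± 0.124 (limma adjusted p = 0.00023). The ratio of Col1a1 to Col1a2 was 1.74, 1.60, 1.39 and 1.31 with YKL-05-099, against 0.440, 0.480, 0.483 and 0.576 with vehicle. Col1a1 exceeded Col1a2 in all 4 YKL-05-099 libraries and in none of the 4 vehicle libraries (exact permutation p = 0.0286, adjusted p = 0.0667 over the 7 ratios).

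Col3a1 (chr1:45311538-45349706, plus strand), the gene of type III collagen, was the most abundant fibrillar transcript in the mouse libraries. Its values were 41.8, 49.5, 50.2 and 53.6 FPKM with YKL-05-099, against 62.8, 66.4, 61.2 and 76.2 FPKM with vehicle. The groups did not overlap, and the log2 fold change was -0.44 ± 0.086 (limma adjusted p = 0.00283).

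The type V genes, whose chains start the fibrils of type I collagen and limit their width, were not called. Col5a2 (chr1:45374321-45503282, minus strand), which lies tail to tail with Col3a1 at a distance of 24614 bp, was at 20.1, 22.2, 22.1 and 21.8 FPKM with YKL-05-099, against 23.9, 26.8, 25.1 and 21.4 FPKM with vehicle. Here only vehicle replicate 4 lay among the YKL-05-099 values. Its log2 fold change was -0.16 ± 0.067 with a limma adjusted p of 0.0763, which became 0.0109 without vehicle replicate 4 and 0.0291 with median-of-ratios scaling. Col5a1 averaged 1.51 ± 0.235 FPKM with YKL-05-099 and 1.67 ± 0.210 FPKM with vehicle (limma adjusted p = 0.470). The ratio of Col3a1 to Col5a2 was 2.26 ± 0.153 with YKL-05-099 and 2.78 ± 0.526 with vehicle (exact permutation p = 0.0571). For Col5a2 to Col5a1 the ratio was 14.5 ± 2.53 with YKL-05-099 and 14.8 ± 2.79 with vehicle (exact permutation p = 1.0).

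**Figure D4:**
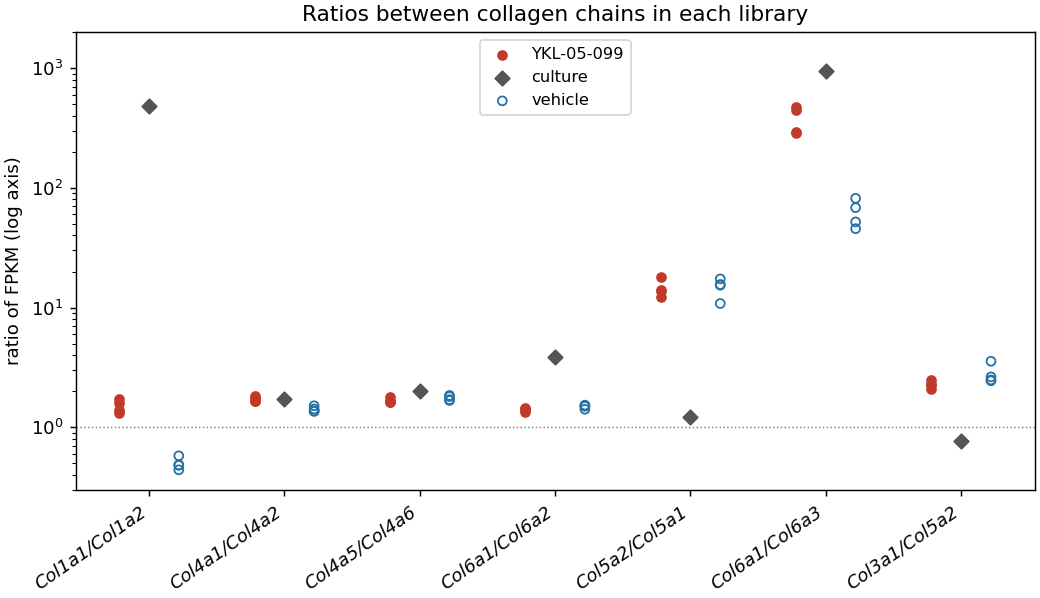
Ratio of FPKM between pairs of collagen chain genes in each library, on a log axis. Red dots are YKL-05-099 libraries, grey diamonds the cultured library and blue circles vehicle libraries, and the dotted line marks equal levels. The mouse groups do not overlap for Col1a1/Col1a2, Col4a1/Col4a2 and Col6a1/Col6a3.

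The FACIT genes and the remaining collagens held 1 gene that rose and 1 that fell. Col20a1 (chr2:180986535-181017540, plus strand), a FACIT gene of little known function, was at 2.38, 2.43, 1.92 and 1.85 FPKM with YKL-05-099, against 0.863, 0.486, 0.644 and 1.22 FPKM with vehicle. The groups did not overlap, and its log2 fold change was 0.81 ± 0.13 (limma adjusted p = 0.00104). A second annotated RNA, BX649560.1, covers 741 bp of the gene on the same strand, so reads there could be counted for either. Col18a1, whose product is a heparan-sulfate-bearing basement membrane collagen that releases endostatin, averaged 3.53 ± 0.145 FPKM with YKL-05-099 and 5.06 ± 0.517 FPKM with vehicle. Its log2 fold change was -0.42 ± 0.075 with no overlap between groups (limma adjusted p = 0.00182). Slc19a1 runs through 8825 bp of that locus on the opposite strand, and the strand setting of the authors' counting is not known from the sources used here.

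Col16a1, a FACIT gene and the most abundant of that family, averaged 25.3 ± 2.37 FPKM with YKL-05-099 and 22.7 ± 2.57 FPKM with vehicle (limma adjusted p = 0.183). Col12a1 averaged 1.27 ± 0.174 and 1.25 ± 0.30 FPKM in YKL-05-099 and vehicle libraries (limma adjusted p = 0.920). Col17a1, the hemidesmosome collagen of epithelia, averaged 2.02 ± 0.256 and 2.29 ± 0.604 FPKM in the same groups (limma adjusted p = 0.503). For these 3 genes the groups overlapped.

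Of the 27 collagen genes that were not tested, 5 were listed at 0 in all 9 libraries, namely the cartilage collagens Col10a1 and Col9a1, Col19a1 and the membrane collagens Col13a1 and Col25a1. The other 22 were above 0 somewhere, and the highest value among them was 1.30 FPKM for Col9a3 in vehicle replicate 4. To be tested, a gene had to reach 1 FPKM in 4 or more of the 8 mouse libraries. For 3 of the 17 genes that passed it, Col6a3, Col20a1 and Col12a1, 1 group reached that level in all 4 libraries and the other in fewer. With no filter, 19.8% of 24793 genes were called, and among the untested collagen genes 2 were. Col8a2, a hexagonal-network collagen known from the cornea, was at 0.0363, 0.0328, 0.0183 and 0.0437 FPKM with YKL-05-099, against 0.541, 0.560, 0.425 and 0.219 FPKM with vehicle (limma adjusted p = 0.00494 with no filter). Col5a3, the third type V chain gene, averaged 0.0300 ± 0.0164 FPKM with YKL-05-099 and 0.184 ± 0.0497 FPKM with vehicle (limma adjusted p = 0.00435 with no filter). Every YKL-05-099 library was below every vehicle library for both, and all of these values were below 1 FPKM.

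Transcripts that serve as markers of cell types were read in the same groups, and some of them stood in the cultured tumor cells too. Macrophage markers, 11 in all, summed to 19.9 to 76.0 FPKM in YKL-05-099 libraries, 10.1 FPKM in culture and 140.1 to 305.1 FPKM in vehicle libraries. Of the 8 tested, 7 were called lower. Cd68 carried nearly all of the cultured sum, and averaged 13.9 FPKM with YKL-05-099 and 18.4 FPKM with vehicle. Adgre1, C1qa, C1qb, C1qc, Cd14, Fcgr1 and Tyrobp were listed at 0 in culture. The 9 pan-leukocyte markers summed to 1.36 to 7.28 FPKM in YKL-05-099 libraries, 1.69 FPKM in culture and 12.9 to 29.0 FPKM in vehicle libraries. All 3 of 3 tested were called lower. Coro1a and Lcp1 carried most of the cultured sum, at 0.900 and 0.514 FPKM. The 5 erythroid markers summed to 1.45 to 92.8 FPKM, 0.188 FPKM and 244 to 1486 FPKM, with 5 of 5 called lower. Over all genes tested 15.1% were called lower. Csf1r, at 0.284 to 0.714 FPKM with YKL-05-099 and 2.00 to 4.64 FPKM with vehicle, passed the filter through the vehicle libraries alone. Cd14, Tyrobp, C1qa, C1qb, C1qc, Cd52, Cd53, Laptm5 and all 5 erythroid markers were below 1 FPKM in at least 1 YKL-05-099 library. Each was above 1 FPKM in every vehicle library, so their passing of the filter leans on the group where they were high. The 11 fibroblast markers other than collagens summed to 471 to 538 FPKM with YKL-05-099, 254 FPKM in culture and 515 to 558 FPKM with vehicle, nearly all of it Dcn. Pdgfra was called lower, 1 of 2 tested, with means of 5.95 FPKM with YKL-05-099 and 12.1 FPKM with vehicle. It was at 10.5 FPKM in the cultured tumor cells. Thy1, Lum, Fap and Fbln1 were listed at 0 in culture, while Postn at 0.366 FPKM was higher there than in any mouse library.

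The 8 pericyte and smooth muscle markers summed to 37.3 to 48.4 FPKM with YKL-05-099, 15.8 FPKM in culture and 37.6 to 64.1 FPKM with vehicle, and 3 of 5 tested were called lower. The 9 endothelial markers summed to 5.97 to 7.65 FPKM, 4.39 FPKM and 5.83 to 8.98 FPKM in the same order, with no call among 2 tested. Kdr carried most of the sum in every mouse library and Egfl7 most of it in culture. Kdr averaged 4.52 FPKM with YKL-05-099 and 5.46 FPKM with vehicle, and was at 0.0711 FPKM in culture. Cldn5 was listed at 0 in every mouse library. The 7 mesothelial markers summed to 1794 to 1835 FPKM with YKL-05-099, 1137 FPKM in culture and 1837 to 1913 FPKM with vehicle, with 3 of 7 called lower. The 9 epithelial tumor cell markers summed to 601 to 648 FPKM, 667 FPKM and 598 to 675 FPKM in the same order, with 2 of 5 tested called higher and 1 lower. The keratin genes Krt8, Krt18 and Krt19 carried that sum, while Epcam did not exceed 0.624 FPKM and Cdh1 did not exceed 0.0511 FPKM in any library. Krt19, at 271 to 382 FPKM in the mouse libraries and 466 FPKM in culture, was also on the mesothelial list. The sums and calls of both lists therefore share that gene. The part of these transcripts in the collagen values was not tested.

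Genes that make, process, bind and degrade collagen were read in the same fit. For comparison, 28.0% of all genes tested were called higher and 15.1% lower. Whether any of the lists below differed from these shares was not tested. In the list for collagen synthesis in the endoplasmic reticulum, 4 of 19 tested genes rose and 4 fell, with a median log2 fold change of 0.025. P4ha3, a catalytic chain of the prolyl hydroxylases that stabilise collagen, was at 15.3, 17.6, 16.0 and 15.5 FPKM with YKL-05-099, against 7.54, 9.10, 7.67 and 10.8 FPKM with vehicle (log2 fold change 0.82 ± 0.10, limma adjusted p = 0.000225). Its paralog P4ha1 went the other way, with 18.4, 22.1, 23.3 and 25.4 FPKM with YKL-05-099, against 38.9, 30.7, 34.3 and 32.04 FPKM with vehicle (log2 fold change -0.59 ± 0.099, limma adjusted p = 0.0013). Neither gene overlapped between groups.

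Mia3, which loads procollagen into transport carriers, rose by 0.36 ± 0.070 on the log2 scale (limma adjusted p = 0.00271), at 44.9 ± 4.15 FPKM with YKL-05-099 and 34.7 ± 2.19 FPKM with vehicle. Creb3l1, a membrane-bound transcription factor that activates type I collagen genes in mouse bone, averaged 1.06 ± 0.107 FPKM with YKL-05-099 and 1.88 ± 0.346 FPKM with vehicle (log2 fold change -0.47 ± 0.10, limma adjusted p = 0.00472).

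Among 6 tested genes of procollagen processing, 1 rose and 1 fell, with a median of -0.065. They were the enhancer of procollagen cleavage Pcolce, which averaged 263 ± 13.6 FPKM with YKL-05-099 and 214 ± 25.9 FPKM with vehicle (limma adjusted p = 0.0121), and its paralog Pcolce2, which averaged 7.89 ± 0.682 and 12.4 ± 1.39 FPKM in the same groups (limma adjusted p = 0.000543). Bmp1 and Adamts2, the proteases that cut the propeptides, were not called. Of 5 tested collagen receptors none rose and 1 fell, with a median of -0.12. That gene was the collagen receptor kinase Ddr1, at 170 ± 12.6 FPKM with YKL-05-099 and 213 ± 14.5 FPKM with vehicle (limma adjusted p = 0.00349), while Itgb1 was at 175 ± 8.73 and 192 ± 12.4 FPKM (limma adjusted p = 0.0952).

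Among 11 tested basement membrane partners of type IV collagen, 2 rose and 4 fell, with a median of -0.092. Nid2, which links laminin to type IV collagen, was at 0.830, 0.989, 1.01 and 0.825 FPKM with YKL-05-099, against 6.05, 4.74, 5.53 and 2.56 FPKM with vehicle (log2 fold change -1.54 ± 0.19, limma adjusted p = 0.00021). It was above 1 FPKM in every vehicle library and below that filter level in most YKL-05-099 libraries. The FPKM + 1 scale understates changes at this level. The laminin chain gene Lama4 averaged 3.03 ± 0.359 FPKM with YKL-05-099 and 6.17 ± 1.60 FPKM with vehicle (limma adjusted p = 0.00341). Hspg2, the gene of perlecan, and the laminin gene Lamc1 fell by 0.21 and 0.19 on the log2 scale (limma adjusted p = 0.00933 and 0.0266). The genes that rose were the laminin gene Lamb2 and Agrn, the gene of the proteoglycan agrin, by 0.12 and 0.20 on the log2 scale (limma adjusted p = 0.0426 and 0.0285). Of 7 collagen-degrading enzymes only Mmp14, the membrane-bound collagenase, passed the filter. It fell to 22.4 ± 0.570 FPKM with YKL-05-099, against 41.4 ± 6.77 FPKM with vehicle (log2 fold change -0.84 ± 0.10, limma adjusted p = 0.000221).

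The second comparison set BeCon cells grown in culture beside those from vehicle mice. With 1 cultured library there is no test, and a gene counted as apart where culture fell above or below every mouse library and differed from the mean of the vehicle libraries by 2 units or more of log2(FPKM + 1). In the cultured cells Col5a1 was far higher, and Col1a2 and Col6a2 were far lower. These 3 were the collagen genes apart, 1 higher and 2 lower of 17 counted. Over all 12296 genes counted 5.14% were apart, 2.08% higher and 3.06% lower.

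**Figure D5:**
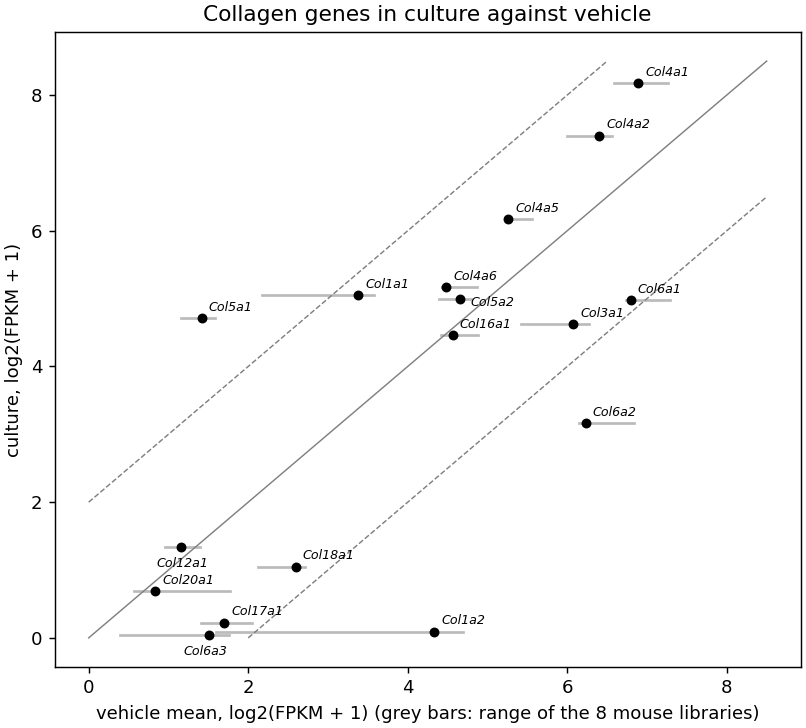
Log2(FPKM + 1) of 17 collagen genes in the cultured library against the vehicle mean. Grey bars span the 8 mouse libraries, the solid line marks equal levels and the dashed lines a difference of 2 log2 units. Col5a1 lies above the upper dashed line, 3.30 log2 units over its vehicle mean, and Col1a2 and Col6a2 lie below the lower one.

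Col5a1 (chr2:27886425-28039514, plus strand) stood at 25.3 FPKM in culture, against 1.55, 1.54, 1.61 and 1.98 FPKM in the vehicle libraries, 15.1 times their mean. The YKL-05-099 libraries, at 1.22 to 1.79 FPKM, lay with the vehicle libraries. The cultured level came close to that of Col5a2 at 30.8 FPKM, so that the ratio of Col5a2 to Col5a1 was 1.22 in culture. The sequence before its start (chr2:27886175-27886424, plus strand, RefSeq GRCm38.p6) is shown as that of the 1 collagen gene apart upwards, and capitals again mark motif matches, here 2 GC boxes.

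Col5a1: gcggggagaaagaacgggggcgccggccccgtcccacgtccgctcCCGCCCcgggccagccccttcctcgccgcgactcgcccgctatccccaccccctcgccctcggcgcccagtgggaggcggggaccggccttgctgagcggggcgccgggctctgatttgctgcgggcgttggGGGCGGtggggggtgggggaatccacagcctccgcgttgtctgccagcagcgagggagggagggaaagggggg

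The type I genes stood on opposite sides of their vehicle levels in culture. Col1a2 stood at 0.0668 FPKM in the cultured library, against 12.4 to 24.9 FPKM in the vehicle libraries, a log2 difference of -4.24. Col1a1 was at 32.2 FPKM in culture and 7.12 to 10.9 FPKM in vehicle libraries, a log2 difference of 1.67. The ratio of Col1a1 to Col1a2 was 482 in culture, against 0.440 to 0.576 in the vehicle libraries. With YKL-05-099 it was 1.31 to 1.74, between these. Col3a1 was at 23.6 FPKM in culture, below all 8 mouse libraries, with a log2 difference of -1.45, and Col5a2 at 30.8 FPKM lay above all of them, with a log2 difference of 0.34.

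All 4 expressed type IV genes stood above the range of the 8 mouse libraries in culture. The share of all genes outside that range in culture, whatever the size of the difference, was not counted. Col4a1 was at 287 FPKM and Col4a2 at 168 FPKM in the cultured library, against vehicle means of 118.6 and 84.6 FPKM. Col4a5 was at 71.0 FPKM and Col4a6 at 35.1 FPKM in culture, against vehicle means of 37.3 and 21.3 FPKM. The log2 differences lay between 0.69 and 1.28, below the 2 units of the rule.

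The 3 expressed type VI genes were all lower in culture than in any mouse library. For this too the share over all genes was not counted. Col6a2 stood at 7.94 FPKM in culture, against 69.8 to 85.0 FPKM in vehicle libraries (log2 difference -3.07). Col6a1 was at 30.6 FPKM in culture, against 105 to 120.0 FPKM in vehicle libraries (log2 difference -1.81), and Col6a3 at 0.0321 FPKM, against 1.47 to 2.37 FPKM (log2 difference -1.46). The ratio of Col6a1 to Col6a2, which lay between 1.33 and 1.53 in all 8 mouse libraries, was 3.86 in culture. Of the remaining genes, Col18a1 at 1.07 FPKM and Col17a1 at 0.168 FPKM were below every mouse library, while Col16a1 at 20.99 FPKM and Col12a1 at 1.53 FPKM lay within the mouse range.

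The count of lower genes depends on the pseudocount, since it damps differences of genes at low levels. With a pseudocount of 0.1 the lower group grew to 5 genes by Col17a1, Col6a3 and Col18a1, and with a pseudocount of 0.5 or TPM scaling it grew to 4 by Col17a1 and Col6a3. Col5a1, Col1a2 and Col6a2 were apart under each of these settings.

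In the partner lists, culture stood apart mainly for the modifying enzymes. Of 19 genes for collagen synthesis counted, 3 were apart, all higher in culture. P4ha2, another prolyl hydroxylase chain gene, was at 109 FPKM in culture and 6.19 ± 1.35 FPKM in vehicle libraries (log2 difference 3.95), and P3h2, a prolyl 3-hydroxylase gene, at 38.1 FPKM in culture and 3.10 ± 0.307 FPKM in vehicle libraries (log2 difference 3.26). P4ha1 was at 164 FPKM in culture and 34.0 ± 3.61 FPKM in vehicle libraries (log2 difference 2.24). Of 11 basement membrane partners 1 was apart, Nid2, listed at 0 in culture. No gene was apart among 7 counted for processing, 5 receptors and 2 degrading enzymes.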

How the data were processed

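RNA of sorted and cultured BeCon cells was sequenced from TruSeq Stranded mRNA libraries, per the labels' protocols. The deposited values are FPKM per gene and library, computed by the authors. The submitters' processing notes name bcl2fastq 2.19 and GRCm38; aligner, quantifier and its strand setting: not given in the sources used here. Of 48302 rows, 65 repeats of a gene and 7 genes with a failed estimate were removed. Depth was read from the lowest values of 5751 genes and is approximate.

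Treatment was tested with limma 3.58.1 (R 4.3.3) on log2(FPKM + 1) with a mean-variance trend, for genes that reached 1 FPKM in 4 or more of 8 mouse libraries, with Benjamini-Hochberg adjustment over all of them and a threshold of 0.05. Every collagen gene with a group mean of at least 1 FPKM is named; each partner list gives up to 4 genes by p and up to 2 by difference in culture, and Agrn, Lamb2, Col8a2, Col5a3 and the single marker genes were named after their values were seen. Chain ratios were compared by exact permutation over libraries. The members, lists and ratios were chosen with earlier results of these data known. GRCm38 coordinates come from the deposited table, written from 1; 43 of 44 starts are those of GENCODE M21. Alternatives were pseudocounts of 0.1 and 0.5, other filters, median-of-ratios and TPM scaling, all 9 libraries in 1 fit, a replicate block and leaving out each library.

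On simulated data for the treatment comparison (11788 genes), limma called 99 of 100 genes with a planted change of 1 log2 unit, 48 of 100 with one of 0.3, and 5 of the 11588 left alone. The size rule for culture found 199 of 200 genes shifted by 3 log2 units. Changes were planted only in genes well above the filter of 1 FPKM, and in far fewer genes than the 43.2% called in the data. Noise was drawn separately for each gene, without a shift shared by a library such as vehicle replicate 4. The rates therefore do not carry over to collagen genes near 1 FPKM or to such a shift.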

Additional observations from a re-analysis of the deposited data

Results flagged for a closer look

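In a group of 4 libraries, the highest or lowest value was looked at again where it lay far from the other 3. This was so in 7 of 48 groups examined, and for a single group chance gives about 1 in 20. The groups share libraries and the ratios reuse the same genes. An excess over chance was therefore not tested. Of these 7, 5 belong to vehicle replicate 4. It had the lowest vehicle value of Col4a1 (95.3 FPKM) and of Col4a2 (63.1 FPKM), and the highest vehicle value of Col5a1 (1.98 FPKM), of Col6a2 (85.0 FPKM) and of the ratio of Col3a1 to Col5a2 (3.56). The other 2 belong to YKL-05-099 replicate 1, which had the lowest YKL-05-099 value of Col4a2 (76.9 FPKM) and of Col5a2 (20.1 FPKM). Without vehicle replicate 4, 6 collagen genes were called higher and 6 lower, the added gene being Col5a2.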

How the results depend on the processing

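Direction and call of 10 of the 11 called collagen genes held in each of the 16 treatment settings, and the 11th, Col4a1, kept its direction. Without filter 5 collagen genes were called higher and 7 lower; without each library in turn 5 to 6 and 5 to 6. The partner lists held 7 genes called higher and 11 lower, and 5 to 7 and 9 to 14 without each library in turn. The replicate numbers do not pair the libraries (same-number correlations of deviations -0.018, 0.13, -0.047 and 0.17); with the replicate block 6 collagen genes were called higher and 5 lower, and 6 and 9 partner genes. The count of collagen genes lower in culture was 2, and 5 with a pseudocount of 0.1, 4 with 0.5 and 4 with TPM scaling; the added genes stood near or below 1 FPKM in culture. It stayed at 2, with 1 higher, without each mouse library. Exact permutation tests of a ratio over 7 libraries cannot go below p = 0.0571. FPKM give no counting error for a single gene, and the cultured library has no replicate.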
